A study of Homo sapiens with 12 samples.

Results

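This account compares, under dexamethasone alone, HEK293 cells that carry a glucocorticoid receptor which cannot be SUMOylated (GR3KR) with HEK293 cells that carry the wild-type receptor (wtGR). Its members are the 3 arrays titled as GR3KR with dexamethasone for 6 h and the 3 arrays titled as wtGR with dexamethasone for 6 h, so it uses 6 of the 12 arrays of the series. HEK293 is a human embryonic kidney line transformed with adenovirus DNA. Each line expresses its receptor stably and grew under hygromycin B. Both groups stood in steroid-depleted medium before treatment, and both then received 100 nM dexamethasone, a synthetic glucocorticoid, for 6 h. No array of the series lacks dexamethasone, and none is of cells without an introduced receptor, so a level that differs between the lines cannot be split into a baseline difference and a different response to the hormone. The labels do not say whether each line is a single clone or a pool of cells. They call the arrays triplicates without naming separate cultures, and a p-value here reflects the spread between arrays that may be technical repeats. The other 6 arrays are of the same lines with dexamethasone and the electrophilic prostaglandin 15d-PGJ2.

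The glucocorticoid receptor is a ligand-activated transcription factor. With hormone it enters the nucleus, binds DNA at palindromic response elements or through other factors, raises genes such as FKBP5, PER1 and TSC22D3, and lowers many inflammatory genes. SUMO is a small protein that enzymes attach to lysines of other proteins, and its attachment to the receptor changes the transcriptional activity of the receptor at some genes. The series title asks whether 15d-PGJ2 acts on glucocorticoid signalling through SUMOylation of the receptor. The comparison described here shows how the 2 cell lines differ before that compound is added.

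The lines differed at many genes, and some of the differences were all or none. Of 11772 genes tested, 1337 passed limma's test after Benjamini-Hochberg adjustment (adjusted p under 0.05, here "called"; 11.4%). Of these, 414 were higher in GR3KR cells (3.52% of the genes tested) and 923 were lower (7.84%), while the median log2 difference over all genes was -0.025. With median scaling in place of quantile normalization, which put the median of all genes at -0.324, the split was 208 higher and 3010 lower, 6.5% of calls higher against 31% here. The arrays of the 2 lines did not overlap at 4279 genes (36.3%), 1729 higher in GR3KR cells (14.7%) and 2550 lower (21.7%). An unadjusted p under 0.05 was found for 3427 genes. The number called depended on single arrays. It was 285, 291 and 158 without GR3KR array 1, 2 or 3, 312 without wtGR array 2, 1496 without wtGR array 1 and 1289 without wtGR array 3. A total of 37 higher and 116 lower genes were called in every one of these 6 fits, and a call said to hold is one of them.

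The arrays detected similar numbers of probes but were not alike. GR3KR arrays 1, 2 and 3 detected 19061, 17959 and 18831 probes, and wtGR arrays 1, 2 and 3 detected 19950, 19196 and 18392. Correlations between arrays over the genes tested ran from 0.97 to 0.991 within GR3KR, from 0.925 to 0.972 within wtGR and from 0.898 to 0.967 between the lines. Some single probes varied widely within a line. For ACTB, the actin gene, 1 of 3 probes read 14.10, 10.17 and 12.80 on GR3KR arrays and 13.29, 10.51 and 6.05 on wtGR arrays. A DNAJB6 probe read 10.62, 8.06 and 9.10 on GR3KR arrays and 10.24, 8.67 and 5.62 on wtGR arrays. The other 2 ACTB probes lay between 13.31 and 14.04 on all 6 arrays. The cause was not tested. Of the genes that HEK293 cells are known for, NEFL, INA, VIM, KRT8 and EYA1 were detected on all 3 arrays of each line, PAX2 on none, NEFM on 0 GR3KR arrays and 2 wtGR arrays, and KRT18 on 2 GR3KR arrays and 1 wtGR array. Of the kidney tubule markers, LRP2 was detected on 3 GR3KR arrays and 0 wtGR arrays, while AQP1, AQP2, SLC12A1, SLC12A3 and CUBN were detected on no array of either line. Of 7 fibroblast markers only COL1A1 was detected on all 3 arrays of either line. Leukocyte markers PTPRC, CD3E and LYZ were detected on no array, while LCP1 and CD14 were detected on all 6.

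The receptor's own gene did not pass the test between the lines. NR3C1 encodes the glucocorticoid receptor, and the 1 probe of it that was detected on all 6 arrays read log2 intensities of 5.97, 6.19 and 5.77 on GR3KR arrays and 5.57, 5.70 and 6.12 on wtGR arrays. The arrays overlapped, and the log2 difference of 0.18 (SE 0.20, limma adjusted p = 0.602) was not called. Its other probes were detected on 2 arrays and on 0. Whether any of these probes lies in the introduced receptor sequence is not known, so the amount of receptor cannot be compared.

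The largest difference measured in both lines was of LCP1, which encodes the actin-bundling protein L-plastin and is best known from leukocytes. LCP1 read 6.18, 5.90 and 5.79 on GR3KR arrays and 11.06, 10.93 and 11.10 on wtGR arrays, which is 33.6-fold lower in GR3KR cells (log2 difference -5.07, SE 0.15, limma adjusted p = 3.16e-05). Other leukocyte genes varied. PTPRC, which marks nucleated blood cells, was detected on no array of either line. CD74, another leukocyte marker, was detected on no GR3KR array and on all 3 wtGR arrays, at mean levels of 5.08 and 5.98. Of 8 measured leukocyte markers, 2 were called lower and 1 higher (37.5%, against 11.4% of all genes). A member can pass the detection filter through the line where it is high. Of the 5 members detected on all 6 arrays, 1 was called higher and 1 lower. The 2 lower calls among the 8 were LCP1 and CORO1A, an actin-binding coronin (log2 difference -0.95, adjusted p = 0.0248, 0.09 without wtGR array 2). The higher one was HLA-DPA1 (0.63). CGA, the common alpha subunit of glycoprotein hormones, had 7.58, 7.73 and 8.13 in GR3KR cells and 11.09, 10.55 and 10.86 in wtGR cells (8.09-fold lower, adjusted p = 0.000983). RAB25, an epithelial GTPase of membrane recycling, was 7.73-fold lower, SCARA5, a ferritin receptor, 7.43-fold, INHBE, a subunit of activin E, 6.48-fold and NPTX2, a secreted pentraxin of synapses, 6.18-fold. ZNF22, a zinc finger protein, was 6-fold lower and the cystatin gene CST1 5.08-fold. SNORD3D, a small nucleolar RNA with near-identical copies, was 4.53-fold lower by a probe that may read those copies too. BEX1, a brain-expressed X-linked gene, was 6.09-fold lower by the probe used, while its second probe read a log2 difference of 0.05. Apart from CORO1A and HLA-DPA1, all 10 genes called here held without each array in turn.

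Among genes measured in both lines, those most raised in GR3KR cells included a sterol hydroxylase and glutathione transferases. CYP27A1, the mitochondrial sterol 27-hydroxylase, read 8.69, 8.94 and 8.77 in GR3KR cells and 5.76, 6.15 and 6.52 in wtGR cells (6.32-fold higher, log2 difference 2.66, SE 0.21, limma adjusted p = 0.00159). GSTP1, the pi-class glutathione transferase that conjugates electrophiles to glutathione, was raised too. It had 13.06, 13.29 and 13.19 in GR3KR cells and 10.30, 10.63 and 10.89 in wtGR cells, 5.97-fold higher (adjusted p = 0.00107). GSTM1 and GSTM2, of the mu class, were both 5.06-fold higher, but their probes read nearly the same on every array and may share signal between these near-identical genes. GSTM1 had 9.38, 9.53 and 9.61 in GR3KR cells and 7.07, 7.15 and 7.28 in wtGR cells, and GSTM2 had 9.33, 9.54 and 9.54 in GR3KR cells and 6.96, 7.18 and 7.25 in wtGR cells. GSTP1, GSTM1 and GSTM2 were the 3 calls among 14 measured glutathione transferases (21.4%, against 11.4% of all genes). That list was added after the data were seen, and its median difference was 0.25.

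Other genes measured in both lines and raised were CNTN1, a neural adhesion molecule (4.76-fold), MBD2, a reader of methylated DNA (4.43-fold), TUSC1 (3.93-fold), PABPC4L (3.88-fold), MBD1, another methyl-DNA binding protein (3.81-fold), and FST, the activin antagonist follistatin (3.33-fold). Arrays of the lines did not overlap at any of them. The call of MBD1 was lost in 3 of the 6 fits with an array left out, with an adjusted p of up to 0.122 (without GR3KR array 3), and that of FST in 1, with 0.0596 (without GR3KR array 3). MBD1 read 8.99, 8.66 and 8.88 in GR3KR cells and 7.07, 7.67 and 6.01 in wtGR cells, and its lowest value was on wtGR array 3. On that array 1 of the 3 probes of ACTB, the actin gene, also read low, at 6.05 against 10.17 to 14.10 on the other 5 arrays, while the other 2 ACTB probes lay between 13.31 and 14.04 on all 6. The part of array quality in the MBD1 difference was not tested.

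Some genes were detected in 1 line only. Such a gene was above background (detection p under 0.01) on all 3 arrays of a line and on none of the other, and its fold is given as a lower bound, with each undetected array raised to the lowest detected level on it. There were 27 called genes of this kind in GR3KR cells and 141 in wtGR cells, of 36 and 223 counted without regard to a call. They had to differ to be counted, so the counts describe and do not test.

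Among the genes detected in GR3KR cells alone, HSPA1A stood highest. HSPA1A encodes the stress-inducible chaperone HSP70. It read 10.12, 10.37 and 10.32 on GR3KR arrays and 4.60, 4.59 and 4.52 on wtGR arrays, at least 28.3-fold higher in GR3KR cells (limma adjusted p = 1.65e-05). ISL1, a homeobox factor of motor neurons and heart progenitors, had 8.81, 8.62 and 8.37 in GR3KR cells and 5.13, 5.06 and 5.23 in wtGR cells, at least 8.88-fold higher. GHR, the growth hormone receptor, had 8.56, 8.62 and 8.59 in GR3KR cells and 4.55, 4.56 and 4.64 in wtGR cells, at least 8.84-fold higher. In each case the 3 arrays of a line lay close together and far from the other line. PLAGL1, an imprinted zinc finger gene, was at least 3.72-fold higher, FLRT2, an adhesion and guidance protein, at least 3.44-fold, and SAMD9, an interferon-inducible antiviral gene, at least 2.67-fold.

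Among the genes detected in wtGR cells alone, TENM1 had the largest bound. TENM1, a teneurin on the X chromosome that links neurons, read 4.70, 4.98 and 5.00 on GR3KR arrays and 9.60, 9.18 and 9.46 on wtGR arrays, at least 14.6-fold lower (limma adjusted p = 7.02e-05). AMBN, an enamel matrix gene, was at least 9.61-fold lower, LY6G6D at least 8.66-fold, BEX5 at least 7.7-fold, RIPPLY2, a segmentation repressor, at least 6.58-fold and PCDH19, an X-linked protocadherin, at least 6.24-fold. The arrays of each line lay close together for BEX5 and PCDH19. BEX5 read 4.95, 4.93 and 4.90 in GR3KR cells and 8.39, 8.53 and 8.54 in wtGR cells, and PCDH19 read 4.64, 4.71 and 4.49 in GR3KR cells and 8.20, 8.19 and 8.15 in wtGR cells. All 12 of these genes held without each array in turn.

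**Figure D1:**
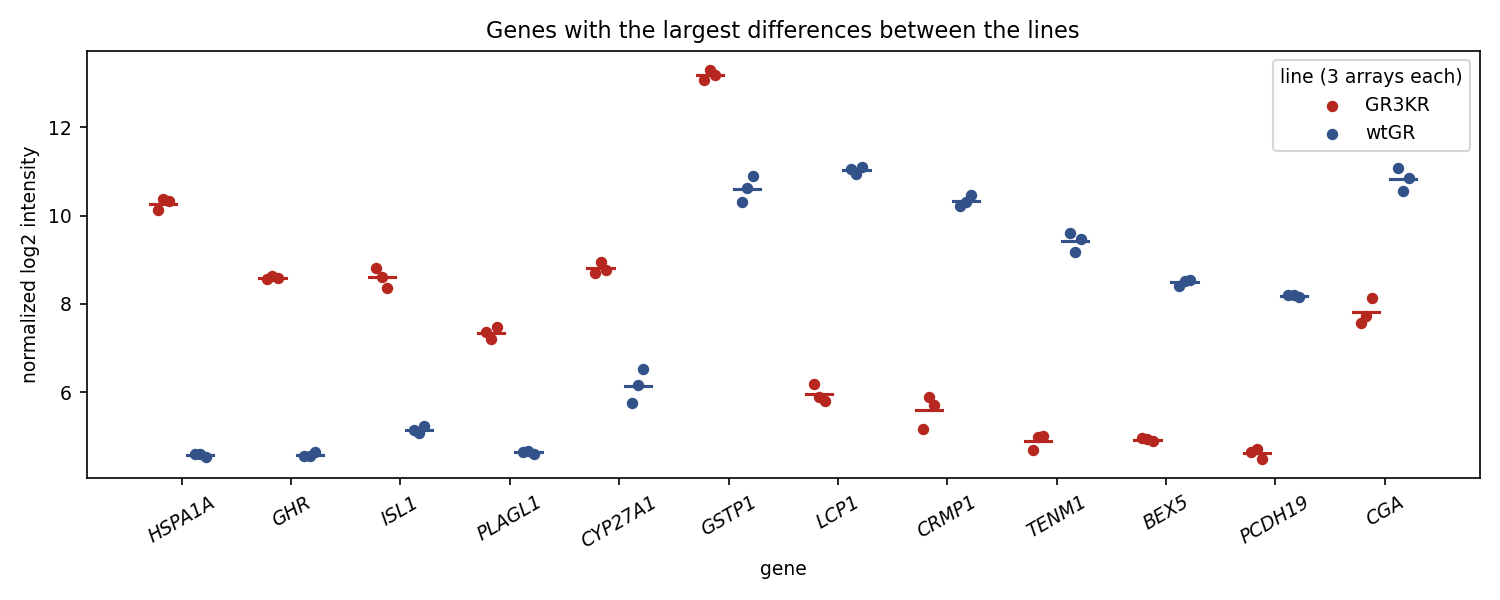
Normalized log2 intensity of 12 genes on the 3 GR3KR arrays (red, left of each pair) and the 3 wtGR arrays (blue, right), with a line at each mean. HSPA1A, GHR, ISL1 and PLAGL1 lie near 5 on all wtGR arrays, LCP1, CRMP1, TENM1, BEX5 and PCDH19 lie near 5 or 6 on all GR3KR arrays, and no gene's arrays overlap between the lines.

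Heat shock genes differed in both directions. HSPA1A and HSPA1L lie next to each other on opposite strands and HSPA1B lies beside them. HSPA1L, a testis-enriched HSP70, was also detected in GR3KR cells alone, with 6.47, 6.29 and 6.06 on GR3KR arrays and 4.48, 4.63 and 4.69 on wtGR arrays, at least 1.78-fold higher (limma adjusted p = 0.00268). HSPA1B encodes nearly the same protein as HSPA1A and was bright in both lines. Its probe read 11.49, 10.12 and 10.91 on GR3KR arrays and 11.25, 10.33 and 10.01 on wtGR arrays, which overlap, with a log2 difference of 0.31. Of 28 measured HSF1 heat shock targets, 3 were called higher (HSPA1A, HSPA1L and HSPB1, log2 difference 1.28) and 4 lower, and the list's median was -0.07. That is 25% called, against 11.4% of all genes, 3.52% called higher and 7.84% lower. HSPA1A and HSPA1L passed the detection filter through the GR3KR arrays alone and had to differ. Of the 21 members detected on all 6 arrays, 1 was called higher and 2 lower, and their median was -0.08. The 4 lower calls among the 28 were HSPB8 (-2.12) and CRYAB (-1.63), both small heat shock proteins, HSPA6 (-1.44) and DNAJB6 (-0.83), whose second probe read 1.08. HSPA1A and HSPA1L held without each array, and the other 5 calls did not (adjusted p up to 0.127 for CRYAB, without GR3KR array 3).

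The promoters of HSPA1A and HSPA1B are shown because the promoters are nearly the same, while HSPA1A was called and HSPA1B was not. The sequences are those of RefSeq on GRCh38.p14, from 250 bases before the start of each gene to 50 after it, both on the plus strand. Capitals mark a match to GAANNTTC, a pair of inverted heat shock factor (HSF1) units.
HSPA1A (chr6:31815293-31815592): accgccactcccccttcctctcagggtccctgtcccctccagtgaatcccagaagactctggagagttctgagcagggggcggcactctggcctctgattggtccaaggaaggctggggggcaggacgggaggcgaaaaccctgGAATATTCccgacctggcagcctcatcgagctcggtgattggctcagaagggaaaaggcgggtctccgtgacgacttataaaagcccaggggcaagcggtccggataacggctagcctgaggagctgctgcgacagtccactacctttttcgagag
HSPA1B (chr6:31827488-31827787): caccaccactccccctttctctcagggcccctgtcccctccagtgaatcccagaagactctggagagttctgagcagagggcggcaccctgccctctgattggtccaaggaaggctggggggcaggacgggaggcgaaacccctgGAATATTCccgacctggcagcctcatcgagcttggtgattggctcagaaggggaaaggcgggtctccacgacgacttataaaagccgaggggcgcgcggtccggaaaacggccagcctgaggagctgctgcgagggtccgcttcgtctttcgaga
Over 299 aligned bases, 277 were identical (92.6%), and the HSF1 match GAATATTC stands at 106 bases before the start in HSPA1A and 105 in HSPA1B. All 3 promoters of HSF1 targets called higher held the match, as did all 3 of those called lower, 4 of 19 of those not called (21.1%) and 4.64% of 9504 promoters of tested genes. The promoter windows of HSPA1A and HSPA1L overlap, so their match is the same stretch of DNA. Whether the differences of HSPA1A and HSPA1B between the lines differ from each other was not tested.

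Classic receptor targets differed in both directions. Of 45 measured targets, 10 were lower, 3 were higher and 32 were not called (28.9% called against 11.4% of all genes, of which more were lower too), and the median log2 difference was -0.04. Of the targets best known as direct, TSC22D3 was called and FKBP5, PER1, KLF9 and SGK1 were not. TSC22D3 encodes the anti-inflammatory leucine zipper GILZ. It read 13.58, 13.52 and 13.52 on GR3KR arrays and 14.27, 14.02 and 14.05 on wtGR arrays, 1.49-fold lower (log2 difference -0.57, SE 0.13, limma adjusted p = 0.0389). Its arrays did not overlap, but its second probe detected on all 6 arrays gave -0.20, and the adjusted p reached 0.18 without GR3KR array 3. Another TSC22D3 probe, detected on 3 arrays, gave 0.55 and varied widely, with 10.25, 4.43 and 5.93 on GR3KR arrays and 9.80, 4.59 and 4.57 on wtGR arrays. FKBP5, a co-chaperone that holds the receptor back, had 12.28, 11.93 and 11.96 in GR3KR cells and 11.78, 11.78 and 11.46 in wtGR cells (log2 difference 0.38, adjusted p = 0.183). PER1, a clock gene, had 6.81, 7.71 and 7.99 in GR3KR cells and 7.53, 8.03 and 8.56 in wtGR cells, which overlap (-0.53, adjusted p = 0.393). The metabolic kinase gene PDK4 was called lower, at 10.51, 10.48 and 10.44 in GR3KR cells and 11.24, 11.27 and 10.96 in wtGR cells (1.6-fold, adjusted p = 0.0292).

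The remaining called targets serve feedback and metabolism. IRS2, an insulin receptor substrate, was 3.02-fold lower, the secreted hormone stanniocalcin STC1 2.57-fold, the transcription factor CEBPB 2.4-fold and the stress sensor GADD45B 2.25-fold. PRR15L was 2.02-fold lower, the cell cycle inhibitor CDKN1C 1.79-fold, the phosphatase DUSP1, which switches off MAP kinases, 1.66-fold, and the repressor BCL6 1.65-fold. Higher in GR3KR cells were ANXA1, an anti-inflammatory annexin (2.69-fold, with 9.67, 10.16 and 9.87 in GR3KR cells and 8.44, 8.37 and 8.61 in wtGR cells), MERTK, a receptor for dying cells (2.19-fold), and CDKN1A, the p21 inhibitor (1.82-fold by the probe used, with a second probe at -0.01). Of the 13 calls, STC1 and ANXA1 held without each array. The count of calls ran from 1 lower and 1 higher without GR3KR array 3 to 11 lower and 3 higher without wtGR array 1, and was 4 lower and 2 higher without GR3KR array 1, the same without GR3KR array 2, 3 lower and 2 higher without wtGR array 2, and 10 lower and 5 higher without wtGR array 3. The metallothioneins MT1X and MT2A had log2 differences of 0.84 and 0.70 and were not called.

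**Figure D2:**
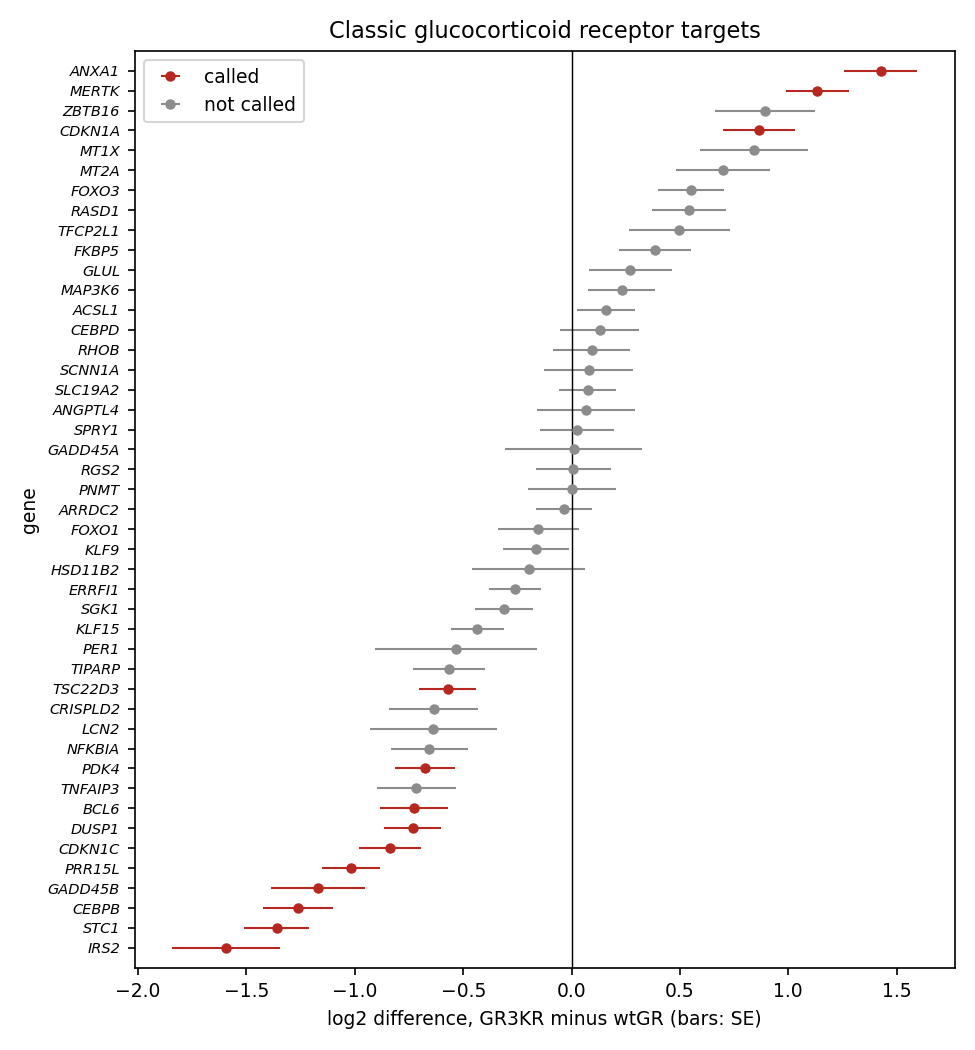
Log2 difference, GR3KR minus wtGR, of the 45 measured classic glucocorticoid receptor targets in order of size, with the standard error of the limma model as bars and called genes in red. The 3 called higher are ANXA1, MERTK and CDKN1A, the 10 called lower lie at or below -0.57, and FKBP5, PER1, KLF9 and SGK1 are grey.

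The window around the start holds the core of a receptor palindrome, ACANNNTGT, in few of these genes. It was found in 2 of 7 promoters of targets called lower (TSC22D3 and IRS2), in 1 of 26 of those not called and in 2.47% of promoters of tested genes. TSC22D3 is shown because it is the called gene among the best known targets, on the minus strand of GRCh38.p14, with the core in capitals.
TSC22D3 (chrX:107775939-107776238): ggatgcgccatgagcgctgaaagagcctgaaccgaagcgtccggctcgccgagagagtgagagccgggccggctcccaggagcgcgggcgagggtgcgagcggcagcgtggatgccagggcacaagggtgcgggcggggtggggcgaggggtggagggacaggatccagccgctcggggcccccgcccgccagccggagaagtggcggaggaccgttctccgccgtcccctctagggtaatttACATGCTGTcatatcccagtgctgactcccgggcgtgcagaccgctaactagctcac
The match starts 7 bases before the start of the gene. Receptor sites often lie far from starts, and such sites were not searched.

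Few partners of the receptor were called. Of 20 measured genes of the SUMO machinery, 1 was called, ZNF451, a SUMO ligase (1.46-fold higher, limma adjusted p = 0.0378, and 0.155 without GR3KR array 3). Of 29 coactivators and corepressors, 1 was called, HDAC1, a histone deacetylase (2.01-fold higher, with 12.85, 12.70 and 12.80 in GR3KR cells and 11.47, 11.89 and 11.97 in wtGR cells), whose call was lost with an adjusted p of up to 0.1 (without GR3KR array 3). Of 19 genes of the receptor, its chaperones and immunophilins, 1 was called, STUB1, a ubiquitin ligase of chaperone clients (2.2-fold higher, adjusted p up to 0.066 without GR3KR array 3). A share of calls near the 11.4% of all genes, or below it, is no result about these lists.

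Many genes of the integrated stress response were lower in GR3KR cells. This response is switched on when cells lack amino acids or misfold proteins: translation slows, the transcription factor ATF4 is made, and it raises genes of amino acid synthesis, uptake and tRNA charging. Of 38 measured ATF4 genes, 20 were called lower and 0 higher, 52.6% against 11.4% of all genes, and the median log2 difference was -0.83 against -0.025 for all genes. INHBE read 6.28, 6.67 and 6.43 on GR3KR arrays and 9.02, 8.92 and 9.51 on wtGR arrays, 6.48-fold lower (limma adjusted p = 0.00124). ASNS, asparagine synthetase, had 12.34, 12.42 and 12.39 in GR3KR cells and 13.66, 13.97 and 14.13 in wtGR cells, 2.89-fold lower (log2 difference -1.53, SE 0.16, adjusted p = 0.00377), and its second probe gave -1.99. CHAC1, which degrades glutathione, was detected on 1 GR3KR array and on all 3 wtGR arrays, with 5.17, 5.37 and 5.52 in GR3KR cells and 6.92, 7.37 and 7.67 in wtGR cells, at least 3.41-fold lower. The groups did not overlap for any of the 3.

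The called genes came from several branches of that programme. Translation repressor EIF4EBP1 was 2.72-fold lower. Among the enzymes, CTH (cystathionine lyase) had a log2 difference of -1.25, PSAT1 (serine synthesis) -1.17 and MTHFD2 (mitochondrial folate) -0.93. Among the amino acid transporters, SLC7A5 had -0.93, SLC3A2 -0.83, SLC38A2 -0.82 and SLC1A5 -0.77. Among the tRNA synthetases, WARS1 had -1.14, MARS1 -0.82 and GARS1 -0.79, while AARS1 and NARS1 were not called. The stress regulators DDIT3 (-1.23), TRIB3 (-1.08), PPP1R15A (-0.95) and DDIT4 (-0.93) and the secreted STC2 (-1.38) were called as well. ATF4 itself had a log2 difference of -0.26 (SE 0.12) and was not called. INHBE, CHAC1, ASNS, EIF4EBP1, STC2 and CTH held without each array, and the number called was 11, 10 and 6 without GR3KR array 1, 2 or 3, 10 without wtGR array 2, 25 without wtGR array 1 and 20 without wtGR array 3. Of the 20, 3 lie in stretches of neighbouring genes that were lower as a whole, and after the shift shared by neighbours was removed, as described with the chromosomes, 19 members were called, all lower.

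**Figure D3:**
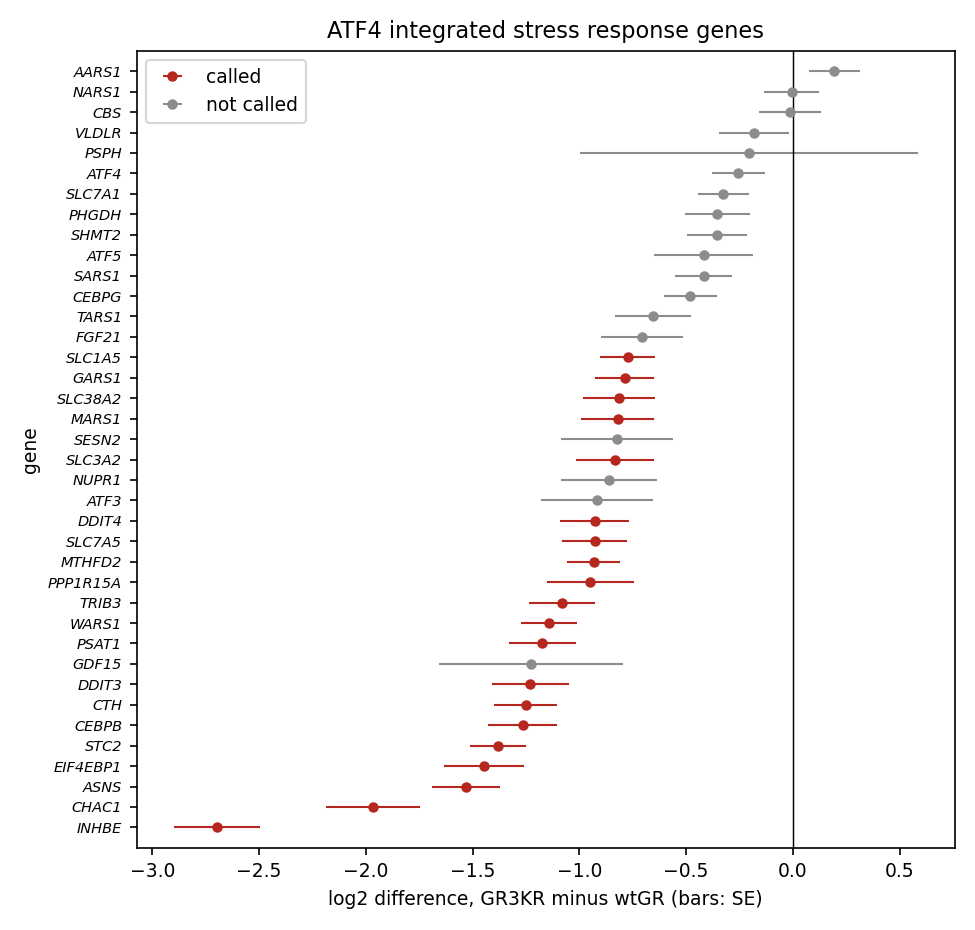
Log2 difference, GR3KR minus wtGR, of the 38 measured ATF4 integrated stress response genes in order of size, with the standard error of the limma model as bars and called genes in red. INHBE, CHAC1 and ASNS lie lowest, and AARS1 is the highest, at 0.19.

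The promoters of CHAC1 and ASNS are shown because both genes are established ATF4 targets and both carry the composite C/EBP-ATF element TGATGNAA within 250 bases of their start. Capitals mark the element, which in CHAC1 reads on the opposite strand. CHAC1 is on the plus strand and ASNS on the minus strand of GRCh38.p14, and both sequences are from RefSeq.
CHAC1 (chr15:40953221-40953520): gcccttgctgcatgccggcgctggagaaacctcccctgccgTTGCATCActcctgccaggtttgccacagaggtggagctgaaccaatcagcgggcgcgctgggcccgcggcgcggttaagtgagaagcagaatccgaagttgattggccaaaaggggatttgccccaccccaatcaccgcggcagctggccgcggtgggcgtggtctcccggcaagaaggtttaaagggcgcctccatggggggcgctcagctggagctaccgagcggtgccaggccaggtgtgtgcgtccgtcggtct
ASNS (chr7:97872359-97872658): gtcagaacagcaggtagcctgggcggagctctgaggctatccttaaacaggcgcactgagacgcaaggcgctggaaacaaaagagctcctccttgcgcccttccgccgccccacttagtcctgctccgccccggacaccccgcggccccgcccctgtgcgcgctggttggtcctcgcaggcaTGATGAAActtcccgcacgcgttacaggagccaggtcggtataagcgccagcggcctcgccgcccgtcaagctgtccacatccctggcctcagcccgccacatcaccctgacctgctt
The element begins 209 bases before the start in CHAC1 and 68 bases before it in ASNS. Searched on both strands, it was in 4 of 18 promoters of ATF4 genes called lower (CHAC1, ASNS, SLC3A2 and MARS1, 22.2%), in 6 of 15 of those not called (40%) and in 1.65% of 9504 promoters of tested genes.

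Genes of the unfolded protein response in the ER were lower in part. Of 19 measured ER chaperones, 7 were called lower and 0 higher (36.8%, against 7.84% of all genes called lower), with a median log2 difference of -0.24. HSPA5, the ER chaperone BiP, read 8.16, 8.07 and 8.13 on GR3KR arrays and 9.65, 9.11 and 9.48 on wtGR arrays, 2.44-fold lower (limma adjusted p = 0.00877, 0.0622 without GR3KR array 3). DNAJB9, its cofactor, had 8.32, 8.53 and 8.29 in GR3KR cells and 9.60, 9.51 and 9.55 in wtGR cells, 2.26-fold lower, and held without each array. DNAJC3, an inhibitor of eIF2alpha kinases, was at least 2.01-fold lower and PDIA4, a disulfide isomerase, 1.67-fold. Of the 7, 6 lie in stretches of neighbouring genes that were lower as a whole, and 2 were called, HSPA5 and DNAJB9, after that shared shift was removed. The number called was 2, 2 and 1 without GR3KR array 1, 2 or 3, 2 without wtGR array 2, 6 without wtGR array 1 and 5 without wtGR array 3.

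Some inflammatory and immediate early genes were also lower. Of 19 measured NF-kB targets, 6 were called lower and 0 higher (31.6%, against 7.84% of all genes called lower), with a median of -0.72. Some members passed the detection filter through the wtGR arrays alone and had to differ. Of the 14 members detected on all 6 arrays, 4 were called lower and 0 higher, and their median was -0.69. CCL20, a chemokine, was detected in wtGR cells alone, with 4.67, 4.40 and 4.47 on GR3KR arrays and 6.59, 6.35 and 7.05 on wtGR arrays, at least 2.18-fold lower (limma adjusted p = 0.00297), and held without each array. TNF, the cytokine, was also detected in wtGR cells alone, with 4.44, 4.59 and 4.66 in GR3KR cells and 5.76, 5.92 and 6.52 in wtGR cells, at least 1.44-fold lower (0.0626 without GR3KR array 3). RELB, an NF-kB subunit, had 5.88, 6.49 and 6.16 in GR3KR cells and 7.45, 8.15 and 8.62 in wtGR cells, 3.71-fold lower (adjusted p = 0.0166, 0.0895 without GR3KR array 3). NFKBIB, an inhibitor of NF-kB, was 2.52-fold lower by the probe used, but its second probe gave 0.07 and its call was lost in each fit without an array. CXCL1 (-1.20) and IER3 (-0.83) were the other calls, and NFKBIA, another inhibitor and a receptor target, had -0.66 and was not called. The number called was 1, 3 and 1 without GR3KR array 1, 2 or 3, 2 without wtGR array 2, and 7 without wtGR array 1 or 3.

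Of 26 measured immediate early genes, 9 were called lower and 0 higher (34.6%, against 7.84% of all genes), with a median of -0.53. FOS read 5.92, 6.06 and 6.08 on GR3KR arrays and 8.58, 7.91 and 7.42 on wtGR arrays, 3.86-fold lower (limma adjusted p = 0.0113). The 3 GR3KR arrays lay close together and all below the wtGR arrays, which spread more. FOSB was 2.08-fold, MYC 2.02-fold and the phosphatase DUSP5 1.89-fold lower, and EGR1 had a log2 difference of -0.84, IER3 -0.83, JUND -0.76, KLF2 -0.74 and DUSP1 -0.73. None of the 9 held in every fit that leaves out an array: the count was 0 without GR3KR array 1, 2 or 3, 2 without wtGR array 2, 8 without wtGR array 1 and 9 without wtGR array 3, with adjusted p-values of up to 0.176 for MYC and 0.066 for FOS.

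Of the neuronal genes, which HEK293 cells are known to express, some were lower in GR3KR cells. Of 24 measured neuronal markers, 11 were called lower, 0 higher and 13 were not called (45.8% called, against 11.4% of all genes), with a median log2 difference of -0.87. CRMP1, a protein of axon guidance, was detected on 2 GR3KR arrays and on all 3 wtGR arrays, with 5.16, 5.90 and 5.70 in GR3KR cells and 10.21, 10.31 and 10.47 in wtGR cells, at least 25-fold lower (limma adjusted p = 0.000151). STMN2, a microtubule regulator of growth cones, was detected in wtGR cells alone and was at least 2.6-fold lower, and CHGB, a granin of secretory granules, at least 2.07-fold. The intermediate filament INA had a log2 difference of -1.69 and the synaptic vesicle protein SYP -1.60. NEFL, a neurofilament, had mean levels of 7.39 in GR3KR cells and 7.59 in wtGR cells. CRMP1, BEX1, STMN2, INA and SYP held without each array. The number called was 6 without GR3KR array 1, the same without GR3KR array 2 and without wtGR array 2, 5 without GR3KR array 3, 11 without wtGR array 1 and 10 without wtGR array 3. Some members passed the detection filter through the wtGR arrays alone and had to differ. Of the 16 members detected on all 6 arrays, 6 were called lower and 0 higher, and their median was -0.19.

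Neighbours of BEX1 were lower as well. Of 12 measured genes of the BEX and TCEAL family, neighbours on the X chromosome, 5 were called lower and 0 higher. That is 41.7%, against 7.84% of all genes called lower. The 5 were BEX5, TCEAL7 (at least 5.02-fold), TCEAL2 (at least 3.46-fold), BEX1, whose second probe gave 0.05, and BEX2. BEX5 passed the detection filter through the wtGR arrays alone and had to differ. Of the 5, 3 lie in stretches of neighbouring genes that were lower as a whole, as do 3 of the 12 measured. Protocadherins went both ways: PCDH19 was lower, PCDH20 was detected in GR3KR cells alone (at least 2.51-fold higher) and PCDH18 was 1.55-fold higher. PCDH7 was 2.39-fold higher by the probe used, while another probe of it gave -0.71. The BEX and protocadherin lists were drawn up after the data were seen.

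Genes of adhesion and matrix were more often higher. Of 46 measured, 13 were called higher and 2 lower (32.6% called, against 11.4% of all genes), with a median log2 difference of 0.30. COL18A1, a basement membrane collagen, read 9.14, 9.04 and 8.96 on GR3KR arrays and 7.08, 7.46 and 7.91 on wtGR arrays, 2.95-fold higher (limma adjusted p = 0.0105, 0.0626 without GR3KR array 3). NCAM1, a neural cell adhesion molecule, had 8.52, 8.15 and 8.29 in GR3KR cells and 6.91, 7.24 and 7.20 in wtGR cells, 2.3-fold higher, and the integrin subunit ITGA1 was detected in GR3KR cells alone. GPC3 (0.95), COL4A5 (0.93), CLDN7 (0.98), VCAN (0.87) and FBN2 (0.76) were among the others. None of the 13 held without each array: 2 were called higher without GR3KR array 1 and also without array 2, 0 without array 3, 1 without wtGR array 2 and 10 without wtGR array 1 or 3. The direction depended on the scaling: with median scaling, which put the median of all genes at -0.32, 6 were called higher and 8 lower.

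Some genes of mitosis were called higher. Of 40 G2/M genes, all measured, 6 were called higher and 0 lower, with a median of 0.30. That is 15%, against 11.4% of all genes called and 3.52% of all genes called higher. With median scaling 2 were called in each direction. The 6 were BIRC5 (1.97-fold), MKI67 (1.79-fold), CCNB1 (1.7-fold), CENPA (1.63-fold), BUB1 and CENPE. The count of higher calls was 1 without GR3KR array 1, 0 without GR3KR array 2 or 3 or wtGR array 2, and 6 without wtGR array 1 or 3. HOX genes, which set position along the body axis, had 5 of 26 higher and 1 lower (23.1% called, against 11.4% of all genes). HOXD4 (3.27-fold), HOXD11 (2.15-fold), HOXD8 (1.9-fold) and HOXD10 (1.88-fold) belong to the cluster on chromosome 2, and HOXB8 (2.21-fold) to that on chromosome 17. HOXD11 held without each array, with 10.08, 9.86 and 9.87 in GR3KR cells and 8.80, 8.84 and 8.86 in wtGR cells (limma adjusted p = 0.00628), and the count of HOX genes called higher was 2 without GR3KR array 1 or 2 or wtGR array 2, 1 without GR3KR array 3, 5 without wtGR array 1 and 7 without wtGR array 3.

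A pattern ran through these differences: many genes moved with their neighbours on the chromosome. The tested genes were put in order along each chromosome with RefSeq (GRCh38.p14), which placed 11759 of them, and cut into 292 blocks of 38 to 43 neighbouring genes. This was done after the data were seen, and DNA was not measured. The median log2 difference was below -0.2 in 65 blocks and above 0.2 in 38. The medians of the 6 arrays did not overlap between the lines in 62 of the 65 and 26 of the 38, and in 107 of all 292 blocks. The 65 and the 38 were picked for their difference on the same arrays, so their lack of overlap follows in large part from the choice. Permuting 3 arrays against 3 cannot give a p under 0.1, so single blocks were not tested.

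Chromosome 3 was lower as a whole. Its 653 genes had a median of -0.38, all 16 of its blocks lay between -0.52 and -0.23, and 124 of its genes were called lower and 4 higher. The median deviation of its genes from their own means over 6 arrays was -0.219, -0.163 and -0.202 on GR3KR arrays and 0.13, 0.224 and 0.278 on wtGR arrays. Chromosomes 13 and 14 had medians of -0.31 and -0.30, and chromosome 20 after its first block -0.32. On chromosome 8 the first 7 blocks had a median of -0.37 and the last 3 had 0.03, and on chromosome 7 the last 6 blocks had -0.39 and the others 0.00. These limits were set after the block medians were seen, and the level changed from 1 block to the next.

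Other stretches were higher in GR3KR cells. The last 10 blocks of chromosome 2 had a median of 0.43 over 406 genes, with 81 called higher and 4 lower, and the first 9 blocks had -0.01 over 364 genes. On single arrays these last 10 blocks deviated by 0.201, 0.241 and 0.196 in GR3KR cells and by -0.257, -0.216 and -0.101 in wtGR cells. Chromosome 18 had a median of 0.37 and 34 of 168 genes called higher, and chromosome 6 a median of 0.26 and 67 of 650. Chromosomes 2, 6 and 18 held 187 of the 414 genes called higher (45.2%) and 13.5% of all genes. Chromosomes 3, 7, 8, 13, 14, 20 and 21 held 443 of the 923 genes called lower (48%) and 22.6% of all genes. These chromosomes were picked for their medians, which all lay above 0.2 or below -0.2, so the excess of calls on them follows from the choice. After a gene called lower, the next gene along the chromosome was also called lower in 16.3% of cases, against 7.8% of all placed genes, and for higher calls these shares were 10.2% and 3.5%.

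**Figure D4:**
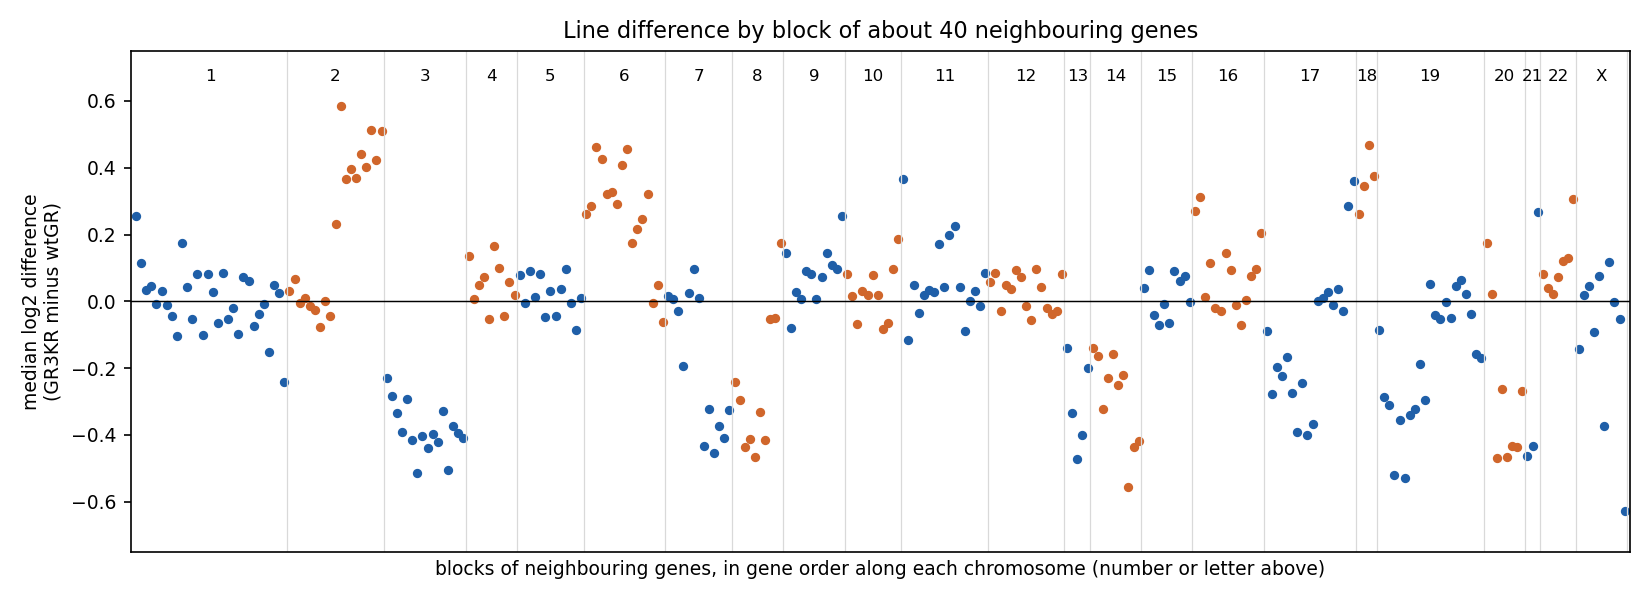
Median log2 difference, GR3KR minus wtGR, of each of 292 blocks of about 40 neighbouring genes, in gene order along each chromosome (colours alternate between chromosomes). All blocks of chromosome 3 lie below 0, the last 10 blocks of chromosome 2 and all of chromosome 18 lie above it, and chromosomes 7 and 8 each change level within the chromosome.

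**Figure D5:**
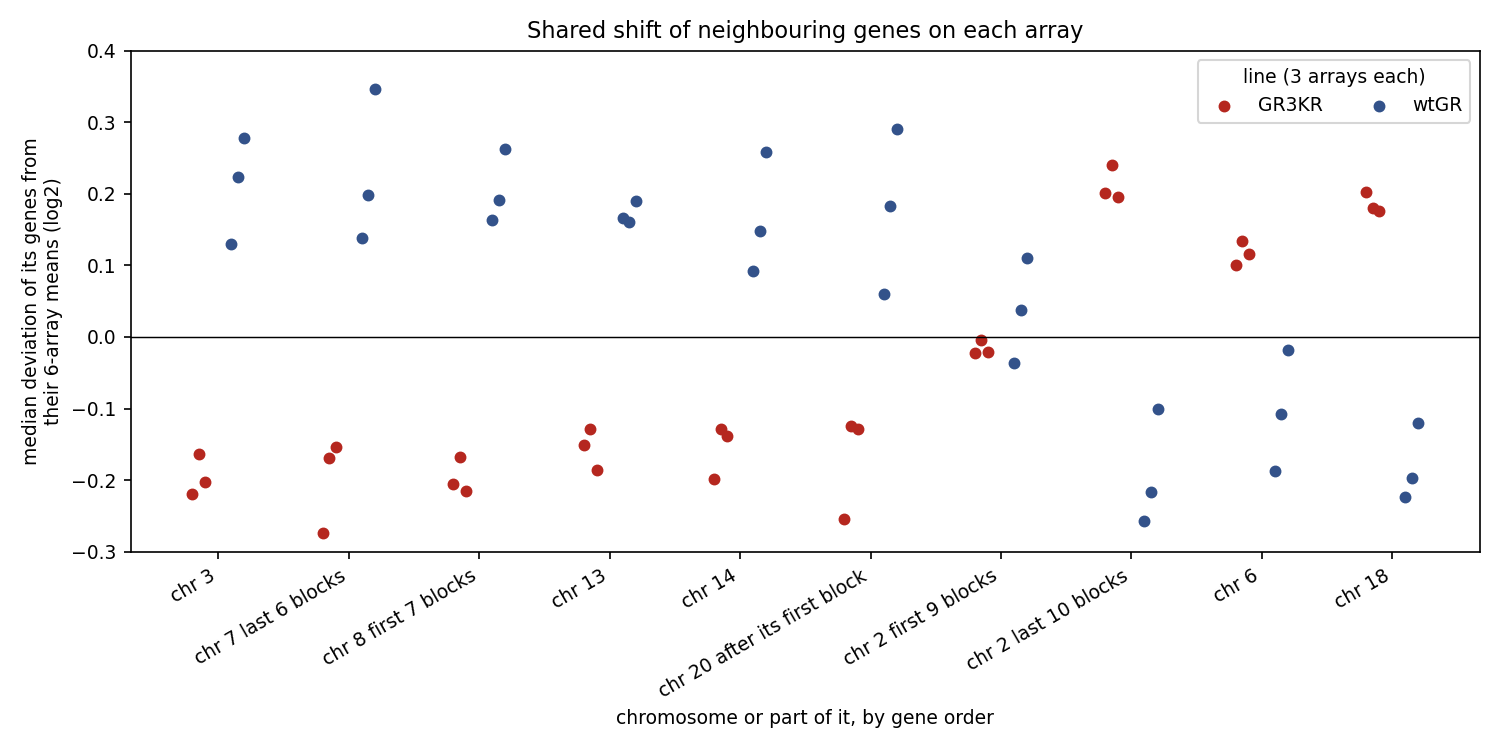
Median deviation of the genes of a chromosome or part of it from their means over 6 arrays, for each GR3KR array (red, left) and wtGR array (blue, right). The 3 GR3KR arrays lie below the 3 wtGR arrays on chromosome 3, on the last 6 blocks of 7 and on the first 7 of 8, above them on the last 10 blocks of chromosome 2, and among them on its first 9.

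The lists differed in how far they took part in this. Of 18 measured canonical histone genes, 7 were called higher and 0 lower (38.9%, against 3.52% of all genes called higher). All 7 lie in the chromosome 6 blocks above 0.2. Blocks above 0.2 hold 14 of the 18 measured, so most calls had to lie in them. The count of higher calls was 3, 2 and 1 without GR3KR array 1, 2 or 3, 5 without wtGR array 2, 9 without wtGR array 1 and 8 without wtGR array 3. H1-2, a linker histone, was 3.26-fold higher, with 12.08, 12.45 and 12.29 in GR3KR cells and 10.41, 10.50 and 10.80 in wtGR cells (limma adjusted p = 0.0032), and held without each array. H2BC11 was 2.66-fold higher, H2BC4 at least 1.81-fold and H2AC17 at least 1.74-fold. After removing the shared shift, 2 histone genes were called higher, among them H1-2 at 1.23, and 1 lower. Histone genes help set the medians of their own blocks. This step therefore cannot separate a shift of the family from one of the region. Zinc finger genes named ZNF, many of which sit in clusters on chromosome 19, had 36 of 307 called lower and 7 higher (14%, near the 11.4% of all genes), with a median of -0.16, and 16 lower and 9 higher after the shift was removed. Without GR3KR array 1 or 2 or wtGR array 2, 8 were called lower and 0 higher, and without GR3KR array 3, 6 and 0. ZNF700 (at least 11.8-fold), ZNF83 (at least 4.16-fold) and ZNF433 (at least 3.54-fold) were lowest. The proteasome had 5 of 27 subunits lower and 1 higher (22.2% called, against 11.4% of all genes), PSMC2 (1.77-fold) first among them, and 0 in either direction after the shift was removed and also without GR3KR array 1, 2 or 3 or wtGR array 2.

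Over all genes, 943 were called after the shared shift of each block was taken out of every array, 369 higher and 574 lower, and 682 of the 1337 calls were among them. The largest differences kept most of their size. HSPA1A had a log2 difference of 5.36 then, LCP1 -4.57, CRMP1 -4.74, TENM1 -4.55 and GSTP1 2.37. MBD2, on chromosome 18, went to 1.70 and stayed called, and MBD1, near it, went to 1.48 and was not called. Among receptor targets, BCL6 on chromosome 3 went to -0.31, with an adjusted p of 0.259, and FKBP5 on chromosome 6 to 0.07.

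The same contrast between the lines was measured on the other 6 arrays, those with 15d-PGJ2 added, which share no array with the comparison. Their GR3KR group was of poorer quality, with 15223, 14207 and 17032 probes detected against 19682, 18896 and 18936 in the wtGR group, and the treatment differs. There the called genes were 2929 higher (24.9%) and 1673 lower (14.2%). Of the 414 genes called higher without 15d-PGJ2, 337 were also higher with it (81.4%), against 62.2% of all genes that were higher without it. Of the 923 called lower, 659 were also lower (71.4%), against 44.6%. LCP1 differed by -4.52 there, CRMP1 by -4.51, HSPA1A by 4.92, GHR by 4.02, ISL1 by 3.81, GSTP1 by 2.85, INHBE by -2.15 and CCL20 by -2.09, each with arrays that did not overlap. PLAGL1, at 0.53, and PCDH20, at 0.33, overlapped there, and STUB1 had -2.82. The chromosomes kept part of their order: with 15d-PGJ2 the medians were 0.405 for chromosome 2, 0.381 for 6 and 0.509 for 18, against -0.008 for 3, -0.014 for 13, 0.023 for 14 and -0.092 for 20. Chromosomes not shifted without 15d-PGJ2 were also above 0 there. Chromosomes 4, 11 and 16 had 0.367, 0.377 and 0.372, close to 2 and 6, and chromosomes 1, 5 and 12 had 0.269, 0.244 and 0.257.

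Where a gene had a second detected probe, it mostly pointed the same way. Of 294 called genes with one, the second probe had the same sign in 261 (88.8%), against 71.8% of all 2949 genes with one. Of the 80 that differed by more than 1 on the log2 scale, 72 did.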

How the data were processed

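Total RNA was labelled with biotin and read on Illumina BeadChips. Per the file headers, the deposited values are linear bead intensities, neither background-subtracted nor normalized, with a detection p-value for each in the same deposited table. A second table holds log2 values the authors normalized with lumi, per the submitters' processing notes, version and steps not given; it served as an alternative. The table's header lines tie each column to its sample. With no control probes in the table, neqc of limma 3.58.1 (R 4.3.3) took the background from the detection p-values, then quantile normalized the 6 arrays and took log2 with an offset of 16. Of 47312 probes, 30107 have 1 symbol in the annotation, 8 several and 17197 none; RefSeq changed 0 symbols. Kept were 15330 probes with 1 symbol and a detection p under 0.01 on at least 3 of the 6 arrays, and each of 11772 genes was read by its brightest. The lines were compared with lmFit and eBayes (limma, 2-sided, 4 residual and 2.82 prior degrees of freedom), adjusted by Benjamini-Hochberg over all genes and called under 0.05. Errors of differences are standard errors of that model. The number of arrays limits the precision. The 6 arrays with 15d-PGJ2 were normalized and fitted on their own. Near-identical genes (HSPA1A and HSPA1B, GSTM1 and GSTM2, histones, snoRNAs) can share signal.

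The members and gene lists were chosen with earlier results of these data known. Genes were named by rule: the 10 largest called differences each way with all 6 arrays detected and no overlap between the lines, the 6 largest bounds each way among called genes detected in 1 line only, up to 4 called members of a list with the largest difference (where a list had no call, up to 2 members by lowest p), and NR3C1 with all its classic targets; placeholder symbols were passed over (1 each way). Other called list members were named after their values were seen. The lists of glutathione transferases, ZNF genes, the BEX and TCEAL family and protocadherins, the ordering of genes along chromosomes and the marker probes of ACTB were added after the data were seen. Over all genes tested, 3.52% were called higher and 7.84% lower. Lists measured but described nowhere else had these calls: hypoxia targets 1 higher and 1 lower of 27, glycolytic enzymes 1 higher of 19, ribosomal proteins 1 higher of 67, S phase genes 2 lower of 37, p53 targets 2 higher of 21, PPAR targets 1 higher and 2 lower of 20, NRF2 targets 3 higher and 1 lower of 26, actin bundling genes 3 higher and 3 lower of 28, YAP and SRF targets 1 lower of 24, metallothioneins 0 of 5, epithelial keratins 0 of 8, fibroblast markers 1 lower of 6, leukocyte markers 1 higher and 2 lower of 8, and kidney tubule markers 1 higher of 2.

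The labels number replicates 1 to 3 in both lines. Same-numbered arrays deviated from their group means with correlations over genes of 0.704 for number 1, 0.051 for number 2 and 0.138 for number 3. The arrays numbered 1 thus deviated alike in the 2 lines, and whether they share a batch was not tested. The main fit does not pair arrays by number and takes no account of this. A fit with the number as a block is given among the alternatives. The test was tried on simulated data with 200 changed genes.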

Additional observations from a re-analysis of the deposited data

Results flagged for a closer look

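MBD1, which binds methylated DNA, differed between the lines in opposite directions with and without 15d-PGJ2. Its log2 difference, GR3KR minus wtGR, was -1.38 with 15d-PGJ2 and 1.93 without it, and in both settings the 3 arrays of a line did not overlap with those of the other. The difference between these differences was not tested. The GR3KR arrays with 15d-PGJ2 detected fewer probes (14207 to 17032) than the 3 wtGR arrays with it (18896 to 19682), and the part of this in the result was not tested.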

How the results depend on the processing

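The alternatives left the direction of most calls as it was: all 1337 called genes kept it under every alternative that tested them except 12 arrays (1336), the mean of a gene's probes (1331) and removal of the block shift (1335). Counts moved more. With 9 arrays 2151 genes were called (721 higher, 1430 lower), with median scaling 3218 (208 and 3010), with array weights 4212 (1740 and 2472; the weights did not fully converge), and cyclic loess called 737 higher. Of alternatives chosen after seeing the data, removing the block shift left 574 lower, and the number of detected probes as a covariate gave 3643 (1278 and 2365). Leaving out single arrays gave 158 to 1496 calls, 37 to 538 higher and 121 to 1121 lower. The cause of these moves was not tested. With the replicate number as a block, 1667 genes were called, 572 higher and 1095 lower; GR3KR and wtGR arrays of the same number were not shown to be pairs. Of 121 named genes that were called, 50 stayed called under every alternative and 0 reversed. Slide as a block was not run, since the headers give no slide. Genes below background have only a bound, so small differences of dim genes are not measured.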

Other observations

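Some smaller lists held called genes in both directions, beside 3.52% of all genes called higher and 7.84% lower. Among genes of the TGF-beta and BMP pathway, 2 of 26 were called higher and 3 lower. FST and INHBE, both of the activin system, were the extremes, and the BMP response genes ID3 and ID2 were 2.67-fold and 2.04-fold lower in GR3KR cells (limma adjusted p = 0.0116 and 0.0117). ID3 read 7.86, 8.13 and 7.99 in GR3KR cells and 9.07, 9.34 and 9.80 in wtGR cells, and both calls were lost when some single arrays were left out. Among Wnt pathway genes, 0 of 31 were called higher and 2 lower: WNT5A, a non-canonical ligand, was 1.81-fold lower and SFRP1, a secreted inhibitor, 1.83-fold lower. Of 30 kidney development regulators, 2 were higher (HOXD10 and HOXD11) and 1 lower (EYA3, 1.95-fold). CNN2, an actin-binding calponin, was 2.83-fold lower, with 8.09, 8.04 and 8.20 in GR3KR cells and 9.63, 9.43 and 9.79 in wtGR cells, and held without each array.

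Of 12 measured members of a list of germline and imprinted genes, 1 was called higher and 6 lower (58.3%, against 11.4% of all genes). The lower ones include BEX1, BEX2 and TCEAL7, counted above with the BEX and TCEAL family, and CDKN1C, counted with the receptor targets. Without GR3KR array 1, 2 or 3 or wtGR array 2, 3 were called lower and 0 higher. The calls that held without each array were TEX19, TCEAL7 and BEX1. TEX19, a germ cell gene, was 4.43-fold lower, with 6.39, 6.49 and 6.05 in GR3KR cells and 8.01, 8.48 and 8.88 in wtGR cells, while PRAME, a cancer-testis antigen, was 2.01-fold higher. Among 33 interferon-stimulated genes, SAMD9 was called higher and OAS3, an antiviral synthetase, 2.42-fold lower. Of 19 sterol synthesis genes, TM7SF2, a sterol reductase, was called (1.66-fold higher, limma adjusted p = 0.0461), and its call was lost in each fit that left out an array. The median number of CpG pairs in promoters, given with no test, was 18 in 300 bases for 23 genes detected in GR3KR cells alone, 18 for 102 detected in wtGR cells alone and 26 for 9504 tested genes.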
